A study of Mus musculus with 35 samples.

Results

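The genes described here are 7 that carry the calcium signal of egg activation: Itpr1, Trpm7, Cacna1h, Calm2, Calm3, Camk2g and Ppp3ca. They are 7 of the 24480 genes in the count table. The list was named with earlier values of these embryos in view, so its members were chosen by their role and selected on the levels of all 4 groups, and those levels and their differences are given as a description with no test. The 4 groups came from wild-type C57BL/6NRj mouse embryos fertilised in vivo. Ctrl zygotes (n = 10) and Kdm5b zygotes (n = 10) were single embryos taken 17 h after ovulation, injected with nuclease-free water or with Kdm5b-yfp mRNA. The Ctrl 2C group (n = 9) and the Kdm5b 2C group (n = 6) were early 2-cell samples taken 5.5 to 8 h after division and injected in the same manner after cleavage. All 2C samples came from zygotes that had been frozen and thawed, and the zygotes had not. Of the Ctrl 2C samples, 6 were intact embryos, 1 held 2 blastomeres and 2 held 3 blastomeres of different embryos, while 5 of the Kdm5b 2C samples were intact and 1 held 3 blastomeres.

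The study asked whether early removal of the histone mark H3K4me3 by the demethylase KDM5B alters transcripts before the embryonic genome is activated. The control was water, with no other mRNA injected, so KDM5B activity and the load of an added mRNA cannot be told apart. Zygote and 2C libraries were prepared on separate days, and neither that day nor freezing can be told apart from stage. In such samples, loss of a transcript and gain of others cannot be separated, since levels are shares of the sequenced RNA. The amount of RNA per cell cannot be read from such shares.

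At fertilisation the sperm brings a phospholipase that makes inositol trisphosphate (IP3), and IP3 opens receptors on the endoplasmic reticulum, so that calcium is released in repeated waves. Calcium entry through channels of the plasma membrane refills the store and keeps the waves going. Calcium bound to calmodulin switches on the kinase CaMKII, which ends the meiotic arrest, and the phosphatase calcineurin. In the mouse the waves fade as pronuclei form, so late zygotes and 2C embryos carry the transcripts of a signal that has already done its main work in the egg.

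Total gene counts ran from 8705584 to 17797581 per sample. Kdm5b itself held at least 2.30% of the counts in each Kdm5b zygote and at least 8.27% in each Kdm5b 2C sample, against at most 0.00137% and 0.0189% in the Ctrl groups, and its row was then removed. All 10 oocyte markers were detected in every group, with a summed level of 5535 to 7365 CPM (counts scaled to library size) in Ctrl zygotes, 5894 to 7625 in Kdm5b zygotes, 3237 to 5606 in Ctrl 2C and 3594 to 5505 in Kdm5b 2C. The 12 cumulus cell markers summed to 1.70 to 16.4 CPM and the 8 sperm markers to 0.115 to 13.9 CPM over the 4 groups.

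Levels are given as TPM, in which each count is divided by the exon length of its gene and all samples are then made to sum alike, so that genes can be set beside each other. In Ctrl zygotes the mean TPM ran in the order Calm2 (826 ± 124, SD, n = 10), Camk2g (424 ± 25.4), Itpr1 (119.6 ± 7.94), Cacna1h (46.2 ± 7.54), Calm3 (43.4 ± 4.65), Trpm7 (26.7 ± 4.31) and Ppp3ca (8.76 ± 3.58). Calm2 ranked 146 and Camk2g 386 by mean TPM among the 19493 genes with a count in that group, while Ppp3ca ranked 7810. In Ctrl zygotes only Cacna1h and Calm3 overlapped among neighbours in this order. In Ctrl 2C the ranges of Calm2 and Camk2g overlapped, and so did those of Calm3 and Trpm7. In Kdm5b 2C the order at the top was Calm2 (221 ± 113, n = 6), Itpr1 (194 ± 17.0) and Camk2g (191 ± 45.3), and these 3 ranges overlapped.

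**Figure D1:**
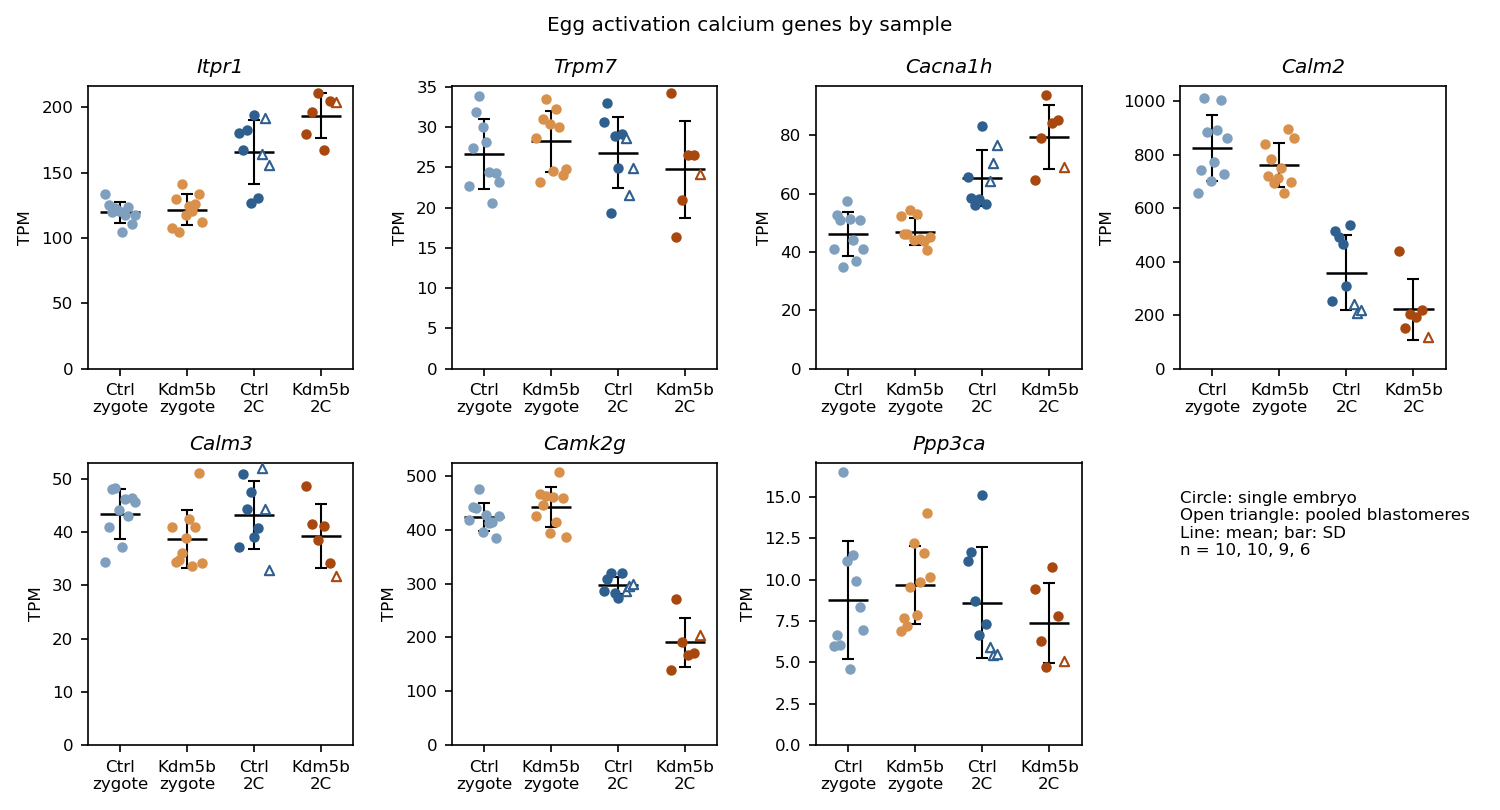
TPM of each of the 7 genes in the 35 samples, in Ctrl and Kdm5b zygotes and 2C samples, with circles for single embryos, open triangles for pooled blastomeres, and the mean with its SD in black. Calm2 and Camk2g sit lower at 2C in both treatments, Itpr1 and Cacna1h sit higher, and the 6 Kdm5b 2C samples of Camk2g lie under all 9 Ctrl 2C samples on this scale, but 5 of 6 do in CPM.

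Camk2g encodes the gamma subunit of CaMKII, the calcium and calmodulin dependent kinase that drives exit from meiosis in the mouse egg. It lies on the minus strand of chromosome 14 of GRCm38, from 20734873 to 20794088. Its TPM in Ctrl zygotes had a lowest value of 385, a median of 422 and a highest of 475. In Kdm5b zygotes the corresponding values were 387, 453 and 507, a range that overlaps the Ctrl zygotes over most of its length. In Ctrl 2C they were 273, 295 and 319, and every Ctrl 2C sample lay under every Ctrl zygote. In Kdm5b 2C they were 140, 181 and 271, so that all 6 samples lay under all 9 Ctrl 2C samples, the nearest pair being 271 and 273. This separation depends on the scale: in CPM 5 of the 6 lay under all Ctrl 2C samples, and replicate 2, at 353 CPM, was above the lowest of them, at 330.1 CPM. How many of all genes separate alike, by stage or by treatment, was not counted. The 6 Kdm5b 2C samples, replicates 1 to 6, read 139.6, 271, 192, 168, 171 and 205 TPM. The spread of Camk2g was wider in this group than in the others, with a coefficient of variation of 23.7% against 5.99% in Ctrl zygotes, 8.38% in Kdm5b zygotes and 5.48% in Ctrl 2C.

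From zygote to 2C the log2 fold change of Camk2g in the edgeR fit was -0.43 (SE 0.06) in Ctrl samples and -1.10 (SE 0.12) in Kdm5b samples. Between treatments it was 0.07 (SE 0.05) in zygotes and -0.59 (SE 0.13) in 2C samples, a mean of 191 against 297 TPM. The Kdm5b 2C samples enter both the second and the last of these values, which are therefore not independent. The effect of Kdm5b-yfp mRNA differed between the stages by -0.66 (SE 0.13) on the log2 scale. Of the 2C libraries, 3 Ctrl and 5 Kdm5b samples carried library index numbers 81 to 88, and in these Camk2g was 286 to 319 TPM in Ctrl and 140 to 271 TPM in Kdm5b. With the set of 8 consecutive index numbers as a covariate the 2C difference was -0.63 (SE 0.14), and with intact embryos only it was -0.61 (SE 0.16). Leaving out each 2C sample in turn gave -0.72 to -0.50.

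Camk2g supplied nearly all CaMKII transcripts. Its share of the summed TPM of the 4 subunit genes was 99.8% ± 0.102 in Ctrl zygotes (SD, n = 10), 99.9% ± 0.0607 in Kdm5b zygotes, 99.6% ± 0.220 in Ctrl 2C and 99.7% ± 0.346 in Kdm5b 2C. The other subunits, Camk2a, Camk2b and Camk2d, which are abundant in brain or heart, had group means of at most 0.630 TPM. The family sum was 425 TPM in Ctrl zygotes, 443 in Kdm5b zygotes, 298 in Ctrl 2C and 192 in Kdm5b 2C.

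Calm2 and Calm3 both encode calmodulin, the small calcium binding protein on which CaMKII and calcineurin depend. They give the same protein of 149 residues: translated from the GENCODE M21 annotation of GRCm38, their coding sequences of 447 bases were 100% identical in residues. In bases, 369 of the 447 were identical (82.6%), and the longest run of identical bases was 17. Copies of these genes elsewhere in the genome were not examined. The third of 6 coding exons is shown to let the pair be compared, and capitals mark the 24 of 144 positions at which they differ. The sequences are on the coding strand, at chr17:87435791-87435934 (minus) for Calm2 and chr7:16917585-16917728 (minus) for Calm3.
Calm2: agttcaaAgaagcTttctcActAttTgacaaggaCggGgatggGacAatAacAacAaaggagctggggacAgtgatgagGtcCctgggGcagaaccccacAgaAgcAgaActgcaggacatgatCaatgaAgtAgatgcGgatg
Calm3: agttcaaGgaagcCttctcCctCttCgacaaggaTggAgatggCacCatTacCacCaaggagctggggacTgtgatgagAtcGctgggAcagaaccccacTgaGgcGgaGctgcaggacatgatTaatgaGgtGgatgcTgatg

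Calm2 was the most abundant of the 7 genes in zygotes and the one with the widest drop in level by 2C. The gene is on the minus strand of chromosome 17, from 87433401 to 87446935. Its TPM in Ctrl zygotes had a lowest value of 657, a median of 817 and a highest of 1012. In Kdm5b zygotes these were 656, 735 and 895. In Ctrl 2C they were 206, 308 and 537, and in Kdm5b 2C they were 119, 198 and 439. No 2C sample reached the lowest zygote in either treatment, but how many of all genes do the same was not counted. The ratio of the mean TPM, zygote over 2C, was 2.30 in Ctrl and 3.45 in Kdm5b samples.

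At 2C the spread of Calm2 was wide, with a coefficient of variation of 39.0% in Ctrl and 51.2% in Kdm5b samples against 15.0% and 10.6% in the zygotes. Among Ctrl 2C samples, the 3 pooled samples had 206 to 240 TPM and the 6 intact embryos 251 to 537 TPM, so the 2 kinds did not overlap. The log2 fold change from zygote to 2C was -1.12 (SE 0.17) in Ctrl samples, and with intact embryos only it was -0.89 (SE 0.15), which no longer passes the threshold of 1 on the fold change. In Kdm5b samples it was -1.71 (SE 0.17), and -1.61 (SE 0.16) with intact embryos only. Between treatments it was -0.11 (SE 0.08) in zygotes and -0.67 (SE 0.26) in 2C samples, whose ranges overlapped. Replicate 1 of Kdm5b 2C, an intact embryo, read 439 TPM against 119 to 218 in the other 5, and without it the 2C difference was -0.96.

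Calm3 lay under Calm2 in every group. Its position is the minus strand of chromosome 7, from 16915379 to 16924032. The lowest, median and highest TPM were 34.3, 44.9 and 48.3 in Ctrl zygotes, and 33.7, 37.5 and 51.1 in Kdm5b zygotes. They were 32.8, 44.3 and 52.0 in Ctrl 2C, and 31.8, 39.8 and 48.6 in Kdm5b 2C. All 4 ranges overlapped. The log2 fold change from zygote to 2C was 0.08 (SE 0.11) in Ctrl and 0.12 (SE 0.12) in Kdm5b samples, and between treatments it was -0.15 (SE 0.09) in zygotes and -0.10 (SE 0.16) in 2C.

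**Figure D2:**
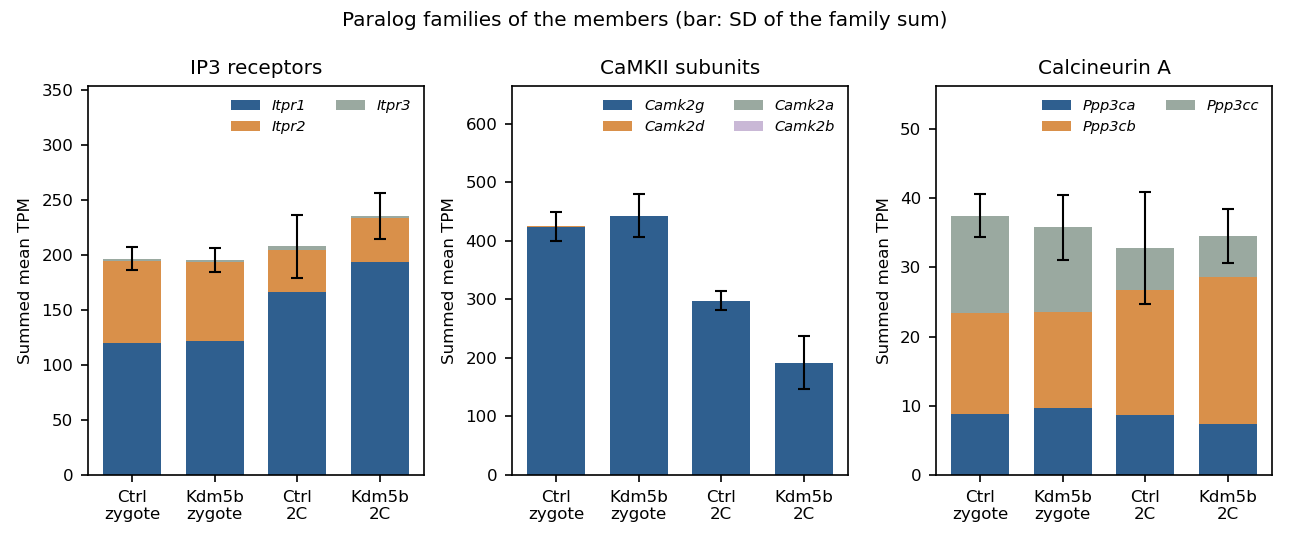
Mean TPM of the genes of 3 families (IP3 receptors, CaMKII subunits and calcineurin A), stacked, in the 4 groups (n = 10, 10, 9 and 6), with the SD of the family sum as a black bar. Camk2g makes up nearly the whole CaMKII bar, and Itpr1 grows as Itpr2 shrinks.

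Itpr1 encodes the type 1 IP3 receptor, the main release channel of the egg's calcium store. On chromosome 6 it spans the plus strand, from 108213096 to 108551116. The lowest, median and highest TPM were 104, 120.1 and 133 in Ctrl zygotes, and 104, 122 and 141 in Kdm5b zygotes. They were 127, 167 and 195 in Ctrl 2C, and 167, 200.0 and 211 in Kdm5b 2C. Of the 9 Ctrl 2C samples, 7 lay above every Ctrl zygote, and all 6 Kdm5b 2C samples lay above every Kdm5b zygote. The share of all genes that do the same was not counted. The log2 fold change from zygote to 2C was 0.56 (SE 0.08) in Ctrl and 0.78 (SE 0.08) in Kdm5b samples. Between treatments it was 0.03 (SE 0.05) in zygotes and 0.27 (SE 0.11) in 2C, where 4 of 6 Kdm5b samples lay above all Ctrl samples.

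The gene of the type 2 IP3 receptor was at a lower level at 2C. Itpr2 had a mean of 74.5 ± 7.77 TPM in Ctrl zygotes and 38.6 ± 5.93 in Ctrl 2C, with no overlap (log2 fold change -0.87, SE 0.09, adjusted p = 2.31e-08, edgeR). In Kdm5b samples its means were 71.4 ± 7.16 and 39.5 ± 5.51 (log2 fold change -0.75, SE 0.09, adjusted p = 1.63e-07, edgeR). Both log2 fold changes were short of the threshold of 1. At an adjusted p under 0.05 alone, 52.2% of all genes passed in Ctrl samples and 58.7% in Kdm5b samples (edgeR). The share of Itpr1 among the 3 receptor genes was 60.9% ± 3.14 in Ctrl zygotes and 79.9% ± 2.22 in Ctrl 2C, and 62.3% ± 3.71 and 82.3% ± 1.39 in the Kdm5b groups. Itpr3 held at most 2.54% in any sample. The family sum was 197 ± 10.7 TPM in Ctrl zygotes and 208 ± 28.6 in Ctrl 2C, whose ranges overlapped. In the Kdm5b groups it was 195 ± 10.7 and 235 ± 21.0, with ranges of 177 to 208 and 202 to 261, which also overlapped.

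Cacna1h encodes the pore of the T-type calcium channel CaV3.2, which helps to load the store during oocyte maturation. It lies on the minus strand of chromosome 17, from 25374287 to 25433783. The lowest, median and highest TPM were 34.9, 47.5 and 57.6 in Ctrl zygotes, and 40.8, 45.6 and 54.4 in Kdm5b zygotes. They were 56.2, 64.3 and 83.1 in Ctrl 2C, and 64.6, 81.7 and 93.97 in Kdm5b 2C. In Ctrl samples 7 of 9 2C samples lay above every zygote in TPM and 9 of 9 in CPM, and in Kdm5b samples all 6 did on both scales. The share of all genes that do the same was not counted. The log2 fold change from zygote to 2C was 0.59 (SE 0.10) in Ctrl and 0.86 (SE 0.09) in Kdm5b samples, and between treatments it was 0.04 (SE 0.08) in zygotes and 0.32 (SE 0.12) in 2C. Among the T-type channel genes, Cacna1h held 84.8% ± 2.38 of the summed TPM in Ctrl zygotes and 87.1% ± 2.14 in Ctrl 2C, and Cacna1i held most of the rest.

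Trpm7 encodes a channel for calcium and magnesium that is fused to a kinase and is used for calcium entry after fertilisation. It lies on the minus strand of chromosome 2, from 126791558 to 126876261. The lowest, median and highest TPM were 20.6, 25.9 and 33.8 in Ctrl zygotes, and 23.1, 29.4 and 33.5 in Kdm5b zygotes. They were 19.4, 28.6 and 33.1 in Ctrl 2C, and 16.4, 25.3 and 34.2 in Kdm5b 2C. The 4 ranges overlapped over most of their length. The log2 fold change from zygote to 2C was 0.09 (SE 0.11) in Ctrl and -0.09 (SE 0.12) in Kdm5b samples. Between treatments it was 0.09 (SE 0.09) in zygotes and -0.07 (SE 0.16) in 2C. Its relative Trpm6, a magnesium channel, was the minor transcript, at 2.90 ± 0.621 TPM in Ctrl zygotes, 2.24 ± 0.668 in Kdm5b zygotes, 2.06 ± 1.36 in Ctrl 2C and 0.704 ± 0.577 in Kdm5b 2C. Trpm7 held 90.03% ± 2.38 of the pair in Ctrl zygotes and 92.7% ± 2.00 in Kdm5b zygotes, and 93.1% ± 3.67 in Ctrl 2C and 97.2% ± 2.33 in Kdm5b 2C.

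Ppp3ca encodes a catalytic subunit of calcineurin, the calcium dependent phosphatase. On chromosome 3 it spans the plus strand, from 136670066 to 136937727. It was the lowest member, with 78 to 414 counts per sample, and the one with the widest relative spread in zygotes (coefficient of variation 40.8% in Ctrl and 24.4% in Kdm5b). The lowest, median and highest TPM were 4.57, 7.64 and 16.5 in Ctrl zygotes, and 6.87, 9.70 and 14.0 in Kdm5b zygotes. They were 5.45, 7.30 and 15.1 in Ctrl 2C, and 4.75, 7.06 and 10.8 in Kdm5b 2C, and all ranges overlapped. The 3 pooled Ctrl 2C samples had 5.45 to 5.91 TPM and the 6 intact ones 6.68 to 15.1. The log2 fold change from zygote to 2C was 0.05 (SE 0.24) in Ctrl and -0.30 (SE 0.20) in Kdm5b samples, and between treatments it was 0.16 (SE 0.18) in zygotes and -0.18 (SE 0.28) in 2C. Differences of the size of these errors were not detectable for this gene. Among the calcineurin A genes, Ppp3cb went from 14.6 ± 2.51 to 18.1 ± 5.69 TPM and Ppp3cc from 14.1 ± 3.86 to 6.14 ± 3.02 TPM between Ctrl zygotes and Ctrl 2C.

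**Figure D3:**
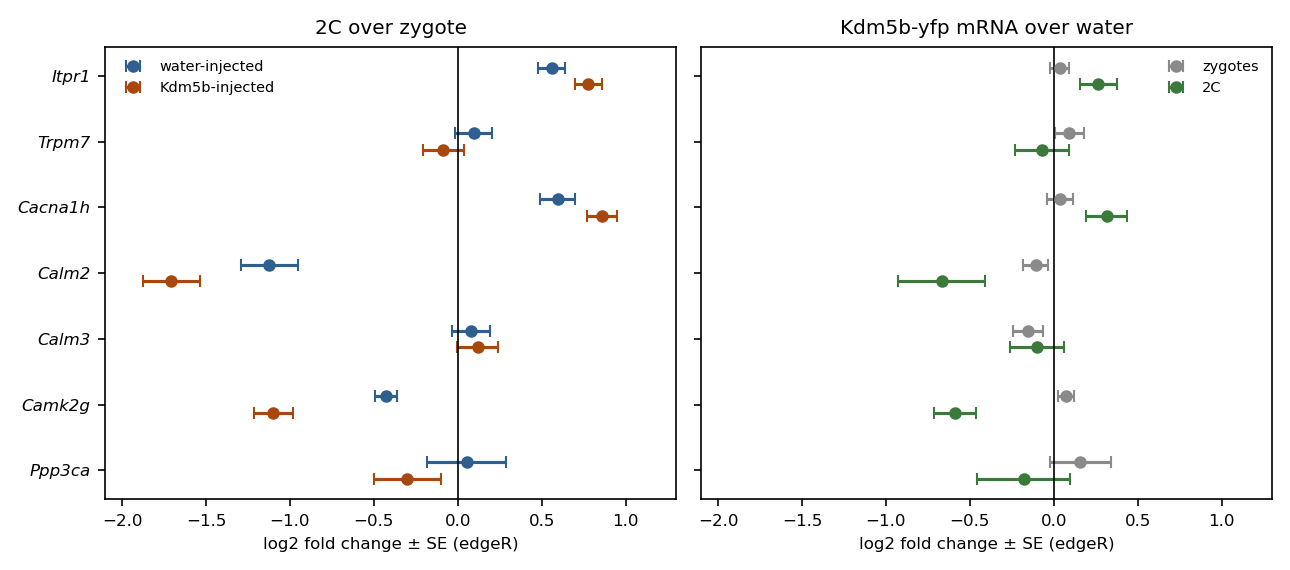
Log2 fold changes with their SE for the 7 genes, from zygote to 2C within each treatment (left) and for Kdm5b-yfp mRNA over water within each stage (right). Itpr1 and Cacna1h lie right of 0 and Calm2 and Camk2g left of 0 for the stage step in both treatments, while the zygote treatment values all lie within 0.16 of 0.

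Calls over all genes, at an adjusted p under 0.05 with a log2 fold change beyond 1 in size, give the background for the 7. From zygote to 2C in Ctrl samples, 0 members were higher, where 9.2% of 11968 genes tested were, and 1 was lower (Calm2), where 13% were. In Kdm5b samples 0 were higher, where 10.5% of 12390 genes were, and 2 were lower (Calm2 and Camk2g), where 16% were. Between treatments 0 members passed in zygotes, where 0.00838% of 11933 genes did, and 0 in 2C samples, where 0.00817% of 12244 did. The stage difference of the treatment effect passed for 0 members, where 0.0145% of 13778 genes did. The members were chosen with these values in view, and nothing is read from the counts. The share of all genes whose groups do not overlap was not computed, for stage or for treatment. At an adjusted p under 0.05 alone, 52.2% of all genes passed for the stage step in Ctrl samples and 58.7% in Kdm5b samples (edgeR). Nothing is therefore read from the separated ranges of members or paralogs either.

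Over all 35 samples, the genes whose log2 CPM was most like that of a member were found among 13777 others, and Pearson's r is given as a description of profiles that share the stage step and the libraries. Itpr1 was most like Ptpn11 (r = 0.95) and Atp11a (0.94), Cacna1h like Phc2 and Unc5c (both 0.90), and Camk2g like Eif4b and Snx2 (both 0.93). Calm2 was most like Noc3l (0.96) and Hmgb1 (0.94). The highest values were lower for the other members. Trpm7 had its highest r with Snrpb (0.63) and Rpl3 (0.59), Calm3 with Hoxa7 (0.59) and Hspa4l (0.58), and Ppp3ca with Hps1 (0.52) and Gorab (0.51). For deviations from the 4 group means, which leave out the stage step, the highest values were 0.86 for Calm2 with Jmy and 0.84 with Dis3. They were 0.76 and 0.75 for Itpr1 with Pls1 and Snx13, 0.72 for Camk2g with both Ccdc24 and Dnmt3a, 0.70 and 0.69 for Cacna1h with R3hdm4 and Med28, and 0.70 and 0.66 for Trpm7 with Ndufs7 and Snrpb. For Calm3 they were 0.59 and 0.57 with Hoxa7 and Ercc6, and for Ppp3ca 0.59 and 0.58 with Ep400 and Fryl. For both genes the tenth value was still 0.52. Each pair named is the highest of 13777 values, and no shared behaviour is read from it. Among the members themselves, Calm2 ran against Cacna1h (r = -0.54) and Itpr1 (r = -0.51) within groups. These 2 pairs are named for having the largest r in size among the members, and nothing is read from them. These values still hold the split between intact and pooled 2C samples. In Ctrl 2C the medians, intact and pooled, were 479 and 218 TPM for Calm2, 58.3 and 70.6 for Cacna1h, and 174 and 164 for Itpr1. The 1 pooled Kdm5b 2C sample lay under the intact median for both Calm2 (119 against 204) and Cacna1h (69.1 against 84.1). For Itpr1 that sample lay above the intact median (203.9 against 196.2).

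The rest of the pathway was described with a list of 75 other genes of calcium release, entry, pumping and decoding. From zygote to 2C in Ctrl samples 53 of them were tested, of which 3 rose (5.66%) and 4 fell (7.55%), where 9.2% and 13% of all genes did, with a median log2 fold change of 0.20 against 0.02 over all genes. In Kdm5b samples 54 were tested, of which 7 rose (13%) and 4 fell (7.41%), where 10.5% and 16% of all genes did, with a median of 0.19 against 0.01. At an adjusted p under 0.05 alone, 23 passed in Ctrl samples (43.4%, against 52.2% of all genes) and 32 in Kdm5b samples (59.3%, against 58.7%).

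Among the genes that remove or refill calcium, Stim2, the calcium sensor of the endoplasmic reticulum, fell in Ctrl samples from a mean of 28.5 ± 7.59 to 5.33 ± 3.54 TPM (log2 fold change -2.35, SE 0.26, adjusted p = 4.26e-08, edgeR). It fell in Kdm5b samples by 2.48 on the log2 scale (SE 0.19, adjusted p = 7.37e-11, edgeR). Atp2b1, a calcium pump of the plasma membrane, fell in Ctrl samples (-1.19, SE 0.16, adjusted p = 7.35e-07, edgeR) and in Kdm5b samples (-1.16, SE 0.13, adjusted p = 4.72e-08, edgeR). The sodium and calcium exchanger Slc8a2 rose in both (1.83, SE 0.57, and 2.65, SE 0.53), from a median of 17.5 counts in Ctrl zygotes to 28 in Ctrl 2C and from 6.5 to 27 in the Kdm5b groups, levels near the lower limit of what was tested. The mitochondrial exchanger Slc8b1 (2.62, SE 0.77) and the entry channel Orai3 (1.54, SE 0.40) rose in Kdm5b samples, and Trpm6 fell there (-1.55, SE 0.43). In Ctrl samples Orai3 had a value of 0.25 (SE 0.54) and Trpm6 one of -0.42 (SE 0.32), and Slc8b1 was not tested, being under the count filter. In the Kdm5b fit Slc8b1 and Slc8a2 could pass that filter through the 2C group alone, where they were higher. Their rise there is therefore a description only.

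Among the genes that decode calcium, the calcineurin regulators Rcan3 and Rcan1 rose in Kdm5b samples (1.21, SE 0.08, adjusted p = 9.34e-12, and 1.17, SE 0.19, adjusted p = 8.99e-06, edgeR). In Ctrl samples their log2 fold changes were 0.87 (SE 0.08) and 0.75 (SE 0.20), under the fold threshold. The calcineurin subunit Ppp3cc fell in Ctrl samples (-1.12, SE 0.32, adjusted p = 0.00462, edgeR), and in Kdm5b samples it passed the adjusted p but not the fold threshold (-0.92, SE 0.24, adjusted p = 0.0021, edgeR). The kinase Camk4, with a median of 51 counts in Kdm5b zygotes, fell in Kdm5b samples (-2.09, SE 0.42) and had a value of -0.73 (SE 0.70) in Ctrl samples. Plcb3, a phospholipase that makes IP3, rose in Kdm5b samples (1.21, SE 0.13, adjusted p = 2.77e-08, edgeR), and its value in Ctrl samples was 0.94 (SE 0.18, adjusted p = 8.96e-05), under the fold threshold. Astl, the cortical granule protease that cleaves the zona after fertilisation, fell in Ctrl samples (-1.12, SE 0.22, adjusted p = 0.000159, edgeR), and its value in Kdm5b samples, -0.89 (SE 0.23, adjusted p = 0.00185), was also short of that threshold. Ryr1, a release channel of muscle, and Marcks, a substrate of protein kinase C, rose in Ctrl samples (1.99, SE 0.70, and 1.63, SE 0.45), with medians of 14 and 24.5 counts in Ctrl zygotes. Their values in Kdm5b samples were 0.98 (SE 0.60) and 0.19 (SE 0.40). Whether the stage step differed between Ctrl and Kdm5b samples was tested as an interaction, and 0 of 60 pathway genes passed in edgeR or in DESeq2, with 6 at an unadjusted p under 0.05 (10%, against 9.1% of all genes tested). The smallest adjusted p was 0.268, for Rcan3 (0.35, SE 0.12, edgeR).

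**Figure D4:**
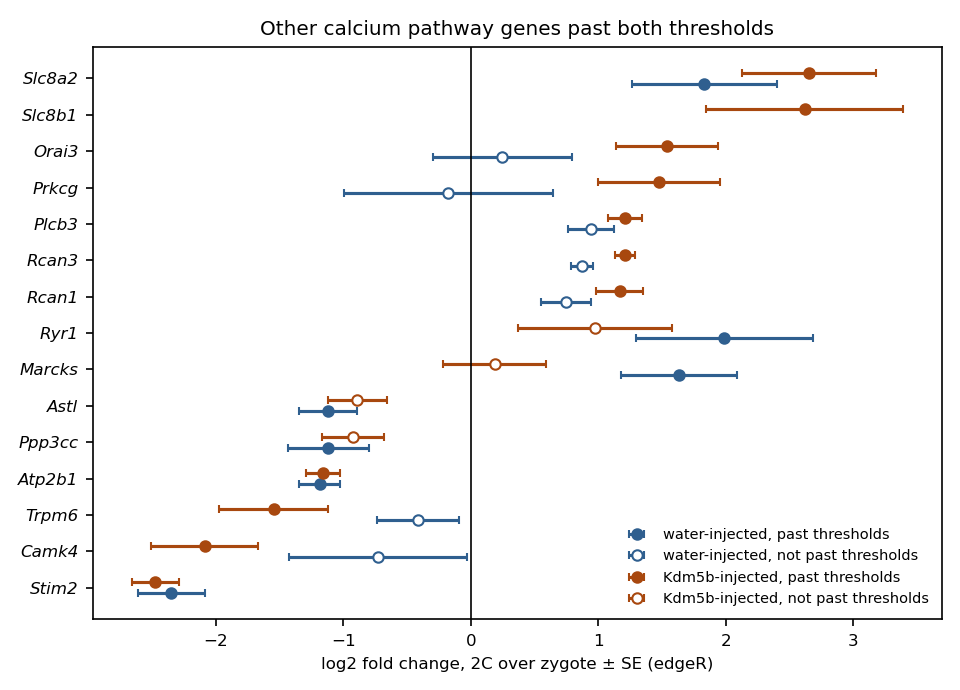
Log2 fold change from zygote to 2C with its SE for the pathway genes past both thresholds in Ctrl or Kdm5b samples, filled where past both thresholds in that treatment and open where not. Stim2 and Atp2b1 lie left of -1 and Slc8a2 right of 1 in both treatments. No Ctrl value is shown for Slc8b1, which was under the filter there. The Kdm5b values of Slc8a2 and Slc8b1 are a description only.

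Between treatments, 0 of 54 pathway genes passed in zygotes and 0 of 57 in 2C samples in edgeR, and DESeq2 also gave 0 and 0. At an unadjusted p under 0.05, 6 (11.1%) and 8 (14%) did, against 10.3% and 9.41% of all genes tested. The smallest p in zygotes was that of Camk4 (log2 fold change 0.96, SE 0.36, adjusted p = 0.342, edgeR), and in 2C samples that of Rcan3 (0.44, SE 0.10, adjusted p = 0.108, edgeR). Rcan3 was 136 to 182 TPM in Ctrl 2C and 199 to 222 TPM in Kdm5b 2C. It was named for having the smallest p in this comparison, so nothing is read from the gap between these ranges.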

How the data were processed

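Total RNA of 35 samples (SMART-Seq Stranded) was sequenced by the authors. The deposited gene table holds counts, unnormalized whole numbers of fragments on RefSeq genes, made with fastp 0.21.0, STAR 2.7.3a on GRCm38 and featureCounts 1.5.1 with strand. A second deposited table, of repeats, was not used here. Gene positions and exon lengths are those of the table.

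The Kdm5b row was removed. TPM was computed from counts and exon lengths. A fit with edgeR 4.0.16 (R 4.3.3) was made for the groups of each comparison (TMM, filterByExpr with a minimum count of 10, quasi-likelihood test, Benjamini-Hochberg adjustment over all genes tested), with calls at an adjusted p under 0.05 where log2 fold change was beyond 1 in size. The fits were also run on simulated counts with known changes larger than the fold threshold, so smaller changes were not covered. The alternatives included DESeq2 1.42.0. Same-numbered replicates did not deviate together (median r between -0.0078 and 0.027).

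The members and lists were chosen with earlier results of these data known. Named besides the members are their paralogs (1 is not reported here), the pathway genes with the smallest p among those called (up to 6 each way, otherwise 1), and the 2 genes most like each member.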

Additional observations from a re-analysis of the deposited data

Results flagged for a closer look

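Of 48 groups of values, 3 held a sample far from the others, and chance gives about 1 in 20. Calm2 was 439 TPM in replicate 1 of Kdm5b 2C, against 119 to 218 in the other 5. In the same sample Camk2g held 99.0% of the CaMKII transcripts, against 99.67% to 99.97% in the others, and its own level, at 139.6 TPM, was the lowest of the group. Camk2d made up the rest in that sample, at 0.984%, against at most 0.174% in the other 5. In replicate 9 of Kdm5b zygotes Calm3 was 51.1 TPM, against 33.7 to 42.5 in the other 9.

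The difference between the effect of Kdm5b-yfp mRNA on Camk2g at 2C and in zygotes was -0.66 on the log2 scale (SE 0.13), lower at 2C. It is listed here by a flagging rule on the edgeR fit of this difference over all genes. That listing is not a test of Camk2g. The gene was chosen with these values in view, so its p is not given and nothing is read from the listing. Of the 6 Kdm5b 2C samples, 5 have index numbers 81 to 88, as do 3 of the 9 Ctrl 2C samples, and with the index set as a covariate the 2C effect was -0.63 (SE 0.14).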

How the results depend on the processing

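Over the alternatives, 735 values of the members' fold changes were computed, and 8 changed sign, all of them of values within 0.08 of 0 on the log2 scale (Calm3, Ppp3ca, Cacna1h and Trpm7). Without the filter on low counts the zygote to 2C values of Ctrl samples shifted by a median of -0.09 over all genes, and Camk2g read -0.52. In all, 10 values of members, this one and shares of a family taken from counts in place of TPM, moved by more than 1 SD between replicates. With no threshold on the fold change, 15 pathway genes were higher and 8 lower at 2C in Ctrl samples, and 20 higher and 12 lower in Kdm5b samples. Over all genes the same setting gave 26.8% higher and 25.4% lower in Ctrl samples, and 29.3% and 29.5% in Kdm5b samples. In a fit of all 35 samples 1 pathway gene, Trpm6, was lower in Kdm5b 2C. Leaving out each sample in turn gave 2 to 4 higher and 3 to 5 lower in Ctrl samples, 6 to 8 higher and 4 to 6 lower in Kdm5b samples, and 0 to 0 between treatments. With the replicate number as a block (replicate block), 2 were higher and 4 lower in Ctrl samples, 5 and 6 in Kdm5b samples, and 0 between treatments and for the interaction. Same-numbered samples share only a number. Counts of pathway genes under the other settings stayed within 1.5 times of those in the report. Counts over all genes did not, but the number of genes tested changed too. Without the filter on low counts they went from 1101 higher and 1555 lower of 11968 genes to 1902 and 2294 of 20192 in Ctrl samples. As shares, 9.2% and 13% became 9.42% and 11.4%. In Kdm5b samples they went from 1301 and 1977 of 12390 to 1988 and 2465 of 20183. There 10.5% and 16% became 9.85% and 12.2%. Between treatments in 2C samples the counts were 0 higher and 1 lower of 12244 genes. They became 6 and 47 of 12244 with the index set as a covariate (0.049% and 0.384%). In a fit of all 35 samples they were 15 and 55 of 13778 (0.109% and 0.399%), and under the others at most 1 and 4. In zygotes 1 higher and 0 lower became 2 and 14 with no threshold on the fold change, and at most 2 and 1 under the others. For the interaction 1 and 1 became 1 and 14 with no threshold, 2 and 10 with intact embryos only, and at most 2 and 4 under the others. Depth limits Ppp3ca most, with 78 counts in its lowest sample.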
